A study of Arabidopsis thaliana with 48 samples.

Results

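The effect of the hot3-2 mutation on how 18S ribosomal RNA (rRNA) ends was examined in nonpolysomal RNA of Arabidopsis seedlings that lack the Dicer-like enzymes DCL2 and DCL4. The comparison used 8 of the 48 libraries of the study, 4 of hot3-2 dcl2 dcl4 against 4 of dcl2 dcl4, chosen by genotype and fraction from their sample titles. All seedlings were 18 days old and of the Col-0 ecotype, and both genotypes carried the dcl2-1 and dcl4-2 alleles, so that hot3-2, a T-DNA insertion in HOT3, was the difference between them. Nonpolysome libraries of hot3-2 and wild type (WT), which have DCL2 and DCL4, were set beside these for context. So were total and polysome libraries of hot3-2 dcl2 dcl4 and dcl2 dcl4. The triple mutant was made by crossing, 1 hot3 allele was used, and the RNA came from whole seedlings, so cell types cannot be told apart. The nonpolysome RNA pooled the light fractions of a sucrose gradient, above the single 80S ribosomes and including the free 40S subunits. The paper describes the hot3-2 dcl2 dcl4 libraries as biological replicates but does not say so of the dcl2 dcl4 libraries, so p-values measure the spread between these libraries, which may in part be technical.

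The 18S rRNA is cut out of a long precursor, and its 3′ end is made last, in the cytoplasm, when the endonuclease NOB1 removes what remains of the internal transcribed spacer 1 (ITS1) at a place called the D site. HOT3 encodes eIF5B1, a GTPase that joins the ribosomal subunits at translation initiation, and in yeast its relative eIF5B stimulates cleavage by Nob1. Precursors that wait or fail can receive nucleotides that no DNA encodes: in yeast, the TRAMP complex adds adenosines to nuclear pre-rRNA before the exosome degrades it. DCL2 and DCL4 cut double-stranded RNA into small interfering RNA, including small RNA made from rRNA, and all plants of the main comparison carried mutations in both genes.

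In the assay, 18S-ENDseq, rRNA is circularised and sequenced across the junction of its ends, which gives the 3′ end position of each molecule and the length of its nontemplated tail. Ends are numbered from the D site, and ran from -5 to +24, with tails of 0 to 10 nt, which made 330 combinations of position and tail (rows) in each library. The sequence around the D site is shown because the named ends and the tail lengths below have to be read against it. It is the plus strand of the TAIR10.1 assembly, with the last 6 bases of the 18S rRNA in front and the first 24 bases of ITS1 after them, and the capitals mark the A1 ends (+8 to +13) and the A2 ends (+21 and +22).
18S rRNA end and ITS1: tcattgtcgatacCTGTCCaaaacagAAcg
The same letters stand at chr2:5508-5537, after the 18S rRNA gene AT2G01010, and at chr3:14199479-14199508, after AT3G41768. Reads were not assigned to either locus, and the deposited positions count along a 45S rDNA reference of the authors.

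The 8 libraries held 1815545 to 3822382 reads. Mature 18S rRNA, which here means untailed reads that end exactly at the D site, made up 72.1 to 80.0% of the reads in hot3-2 dcl2 dcl4 and 90.4 to 91.5% in dcl2 dcl4. Each row is given below as a percentage of that count in its own library, so more precursor and less mature 18S rRNA cannot be told apart. A limit of 3 reads corresponded to 9.81e-05 to 0.000224% of mature 18S rRNA. No pair of libraries within a group agreed within counting error over all rows (chi-square per degree of freedom 9.89 to 296).

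Nearly every end beyond the D site was more abundant in hot3-2 dcl2 dcl4. Of the 329 rows that remain without the untailed D-site row, 252 had at least 10 reads in at least 4 of the 8 libraries and were tested (edgeR quasi-likelihood test, with library sizes set to the untailed D-site counts, Benjamini-Hochberg adjusted p under 0.05). A change was called in 223 rows (88.5%), of which 221 were higher in hot3-2 dcl2 dcl4 (87.7% of those tested) and 2 were lower (0.794%). In 215 rows (85.3%) the libraries of the groups did not overlap. The median log2 fold change of the tested rows was 3.77, and the 29 rows without a call lay mostly within 18S rRNA, 22 of them between -5 and -1. Many rows passed the filter only through the hot3-2 dcl2 dcl4 libraries. In the 139 rows with at least 10 reads in each dcl2 dcl4 library, 117 were called higher and 1 lower, with a median of 3.63.

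These directions are relative to mature 18S rRNA. Scaling to all counted reads gave 214 rows higher and 2 lower. TMM scaling, which by its construction sets the bulk of the rows near no change, moved the median to 0.30 and split the calls into 76 higher and 77 lower. Among the untailed ends for which this value was extracted, which do not cover all that were called higher, those at +1, +11, +12, +13, +21, -1, -3, -4 and -5 turned to lower relative to the bulk of the rows, and those at +10 and +22 lost their call.

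**Figure D1:**
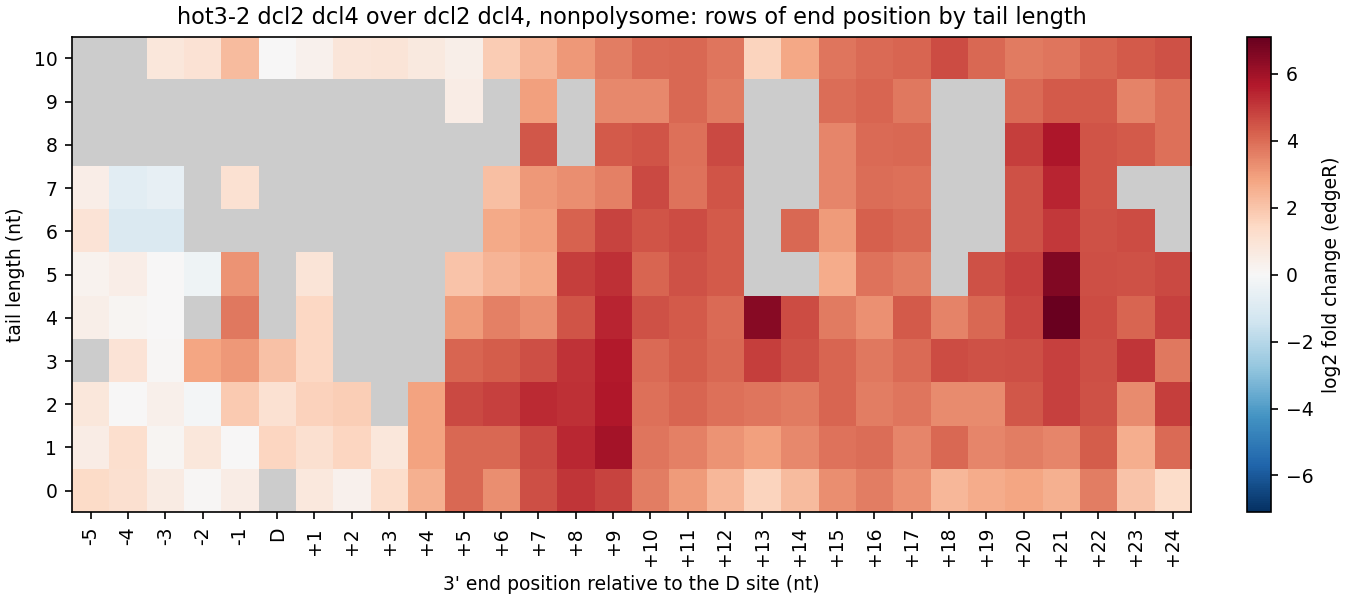
Log2 fold change of hot3-2 dcl2 dcl4 over dcl2 dcl4 for each row, with the 3′ end position relative to the D site on the horizontal axis and the tail length in nt on the vertical axis. Red is higher in hot3-2 dcl2 dcl4, grey was not tested, most rows from -5 to -3 are pale, and the darkest cells, tails of 4 nt at +13 and +21, had at most 3 reads in any dcl2 dcl4 library and so no reliable size.

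Among untailed ends, 27 of 29 positions were called higher and none lower, near the share over all tested rows (221 of 252, 87.7%). The counts of calls in this paragraph therefore do not set untailed ends or their classes apart. The ends next to A1, from +3 to +7, were higher at all 5 positions (median log2 3.31), those of A1 at all 6 (3.32), those between A1 and A2 at all 7 (2.80) and those of A2 at both (3.09), against a median of 2.50 over all untailed rows. The 2 positions without a call were -2 and +2. All 29 positions had at least 10 reads in each dcl2 dcl4 library, so none depended on the filter.

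The A1 ends nearest the D site changed most. At +8, untailed reads made up 1.39, 1.21, 1.53 and 1.32% of mature 18S rRNA in the 4 hot3-2 dcl2 dcl4 libraries, against 0.0392, 0.0415, 0.0405 and 0.0384% in the 4 dcl2 dcl4 libraries. At +9 they made up 0.966, 0.758, 1.07 and 0.863% in hot3-2 dcl2 dcl4, against 0.0363, 0.0280, 0.0359 and 0.0305% in dcl2 dcl4. Both positions were nearly empty in dcl2 dcl4, each library of which stood far below every hot3-2 dcl2 dcl4 library, and the spread within a group was small beside the gap. The log2 fold change was 5.09 ± 0.16 (SE, adjusted p = 1.49e-11) at +8 and 4.81 ± 0.19 (adjusted p = 1.20e-10) at +9. Together the 2 positions rose 31.3-fold, to 2.27% ± 0.269 (SD, n = 4) in hot3-2 dcl2 dcl4, against 0.0726% ± 0.00391 in dcl2 dcl4.

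Further from the D site, the change in A1 ends was smaller at each step, and from +11 on these ends were also frequent in dcl2 dcl4. At +12, the most abundant untailed end beyond the D site in both groups, the levels were 3.10, 2.17, 3.23 and 2.33% in hot3-2 dcl2 dcl4, against 0.581, 0.450, 0.631 and 0.489% in dcl2 dcl4. The log2 fold change was 3.61 at +10, 3.03 at +11, 2.33 at +12 and 1.60 at +13. The groups were separate at each of these positions, while within each genotype replicates 1 and 3 were higher than replicates 2 and 4. As a class, +10 to +13 reached 5.91% ± 1.24 in hot3-2 dcl2 dcl4, against 1.13% ± 0.176 in dcl2 dcl4 (5.23-fold).

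The make-up of the untailed precursor pool differed accordingly. Ends at +8 and +9 were 15.7% ± 1.17 of untailed reads from +1 to +22 in hot3-2 dcl2 dcl4 and 2.82% ± 0.0486 in dcl2 dcl4. Ends at +1 and +2 were 6.83% ± 1.31 of the pool in hot3-2 dcl2 dcl4 and 26.5% ± 4.39 in dcl2 dcl4. Ends at +10 to +13 were 40.4% ± 1.36 in hot3-2 dcl2 dcl4 and 43.7% ± 4.11 in dcl2 dcl4, and this was the 1 of 7 classes whose libraries overlapped (two-sided exact permutation p = 0.229, against 0.0286 for each other class, the smallest p that 70 arrangements of 4 against 4 libraries allow).

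**Figure D2:**
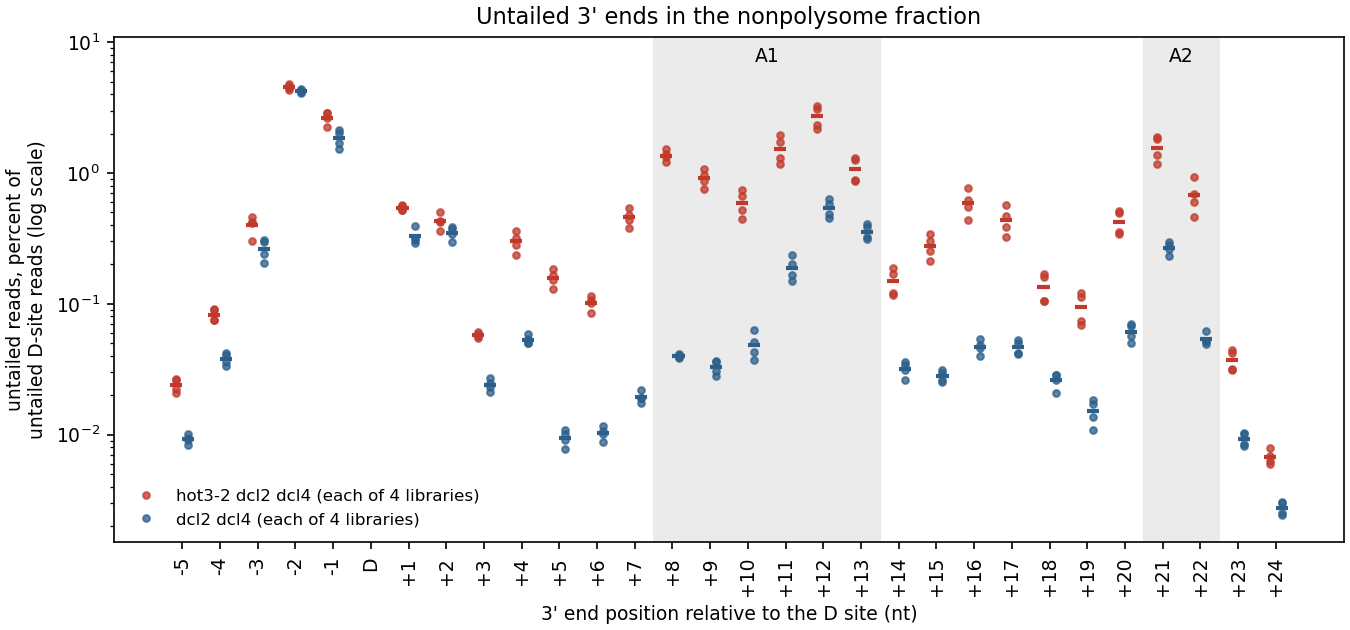
Untailed reads at each 3′ end position as a percentage of untailed D-site reads (log scale), with 1 point per library and a bar at the mean of 4. The groups overlap at -3, -2 and +2 among the positions shown, and the gap is widest at +8 and +9, with 1.21 to 1.53% in hot3-2 dcl2 dcl4 and 0.0384 to 0.0415% in dcl2 dcl4 at +8.

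A2 is the other group of precursor ends, further into ITS1. At +21 the untailed levels were 1.87, 1.37, 1.82 and 1.18% in hot3-2 dcl2 dcl4, against 0.298, 0.264, 0.283 and 0.231% in dcl2 dcl4. At +22 they were 0.696, 0.464, 0.935 and 0.602% in hot3-2 dcl2 dcl4, against 0.0519, 0.0493, 0.0616 and 0.0518% in dcl2 dcl4. The groups were separate at both positions, with log2 fold changes of 2.54 ± 0.18 (SE, edgeR adjusted p = 1.53e-08) at +21 and 3.65 ± 0.22 (adjusted p = 4.18e-09) at +22. The ratio of untailed A1 to untailed A2 reads was 3.69 ± 0.238 in hot3-2 dcl2 dcl4 and 3.73 ± 0.334 in dcl2 dcl4, which overlapped (exact permutation p = 0.914).

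Tailed precursors rose more than untailed ones. Tailed reads from +1 to +22 made up 8.08, 5.40, 12.4 and 8.46% of mature 18S rRNA in hot3-2 dcl2 dcl4, against 0.475, 0.378, 0.644 and 0.498% in dcl2 dcl4. This was a 17.2-fold difference (8.58% ± 2.87 against 0.499% ± 0.110), beside 5.66-fold for untailed reads of the same window. Replicate 3 was highest and replicate 2 lowest in both genotypes. The tailed share of all reads in the window was 33.3, 31.1, 41.6 and 39.7% in hot3-2 dcl2 dcl4, against 15.0, 13.6, 19.0 and 16.8% in dcl2 dcl4. The lowest hot3-2 dcl2 dcl4 library therefore had a larger tailed share than the highest dcl2 dcl4 library (exact permutation p = 0.0286, Benjamini-Hochberg p = 0.0381 over the 56 summary measures compared). Of these measures, 42 had groups that did not overlap, each with that same p. Wilson 95% intervals of the window's tailed share had half-widths of 0.125 to 0.153 points in hot3-2 dcl2 dcl4 and 0.241 to 0.327 points in dcl2 dcl4. They cover counting error only, since the reads are PCR products without molecular identifiers.

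Taken row by row, 194 of 223 tested tailed rows were called higher and 2 lower, near the share over all tested rows (221 of 252, 87.7%). Only 110 tailed rows had at least 10 reads in each dcl2 dcl4 library. The median log2 fold change of tailed rows was 3.89, and all tested tailed rows of A1 (53), of the stretch between A1 and A2 (57), of A2 (20) and of +23 and +24 (17) were higher. Only 28, 29, 11 and 2 of these rows, in the same order of classes, had at least 10 reads in each dcl2 dcl4 library, and the others passed the filter through the hot3-2 dcl2 dcl4 libraries, so their counts are no support for a difference. From +3 to +7 the count was 27 of 30, at +1 and +2 it was 7 of 9 and at the D site 3 of 4. In these classes 11, 6 and 3 rows had at least 10 reads in each dcl2 dcl4 library. The tailed rows within 18S rRNA, from -5 to -1, stood apart, with 10 higher, 2 lower and 21 not called of 33. Among rows with a mean of at least 0.01% of mature 18S rRNA, the largest change was that of the single-nucleotide tail at +9. That row held 0.126, 0.0984, 0.146 and 0.122% in hot3-2 dcl2 dcl4 and 0.00238, 0.00165, 0.00232 and 0.00196% in dcl2 dcl4 (log2 5.89 ± 0.25 SE, edgeR adjusted p = 1.77e-10). Other large changes were those of 2 to 4 nt at +9, tails of 1 and 2 nt at +8 and tails of 1 to 3 nt at +7, all with a log2 fold change between 4.58 and 5.70. These rows and that of 1 nt at +9 reached the mean of 0.01% only through hot3-2 dcl2 dcl4, so the cut favours rows that are high there. Tails of 3 nt at +9 had 8 reads in dcl2 dcl4 replicate 3.

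**Figure D3:**
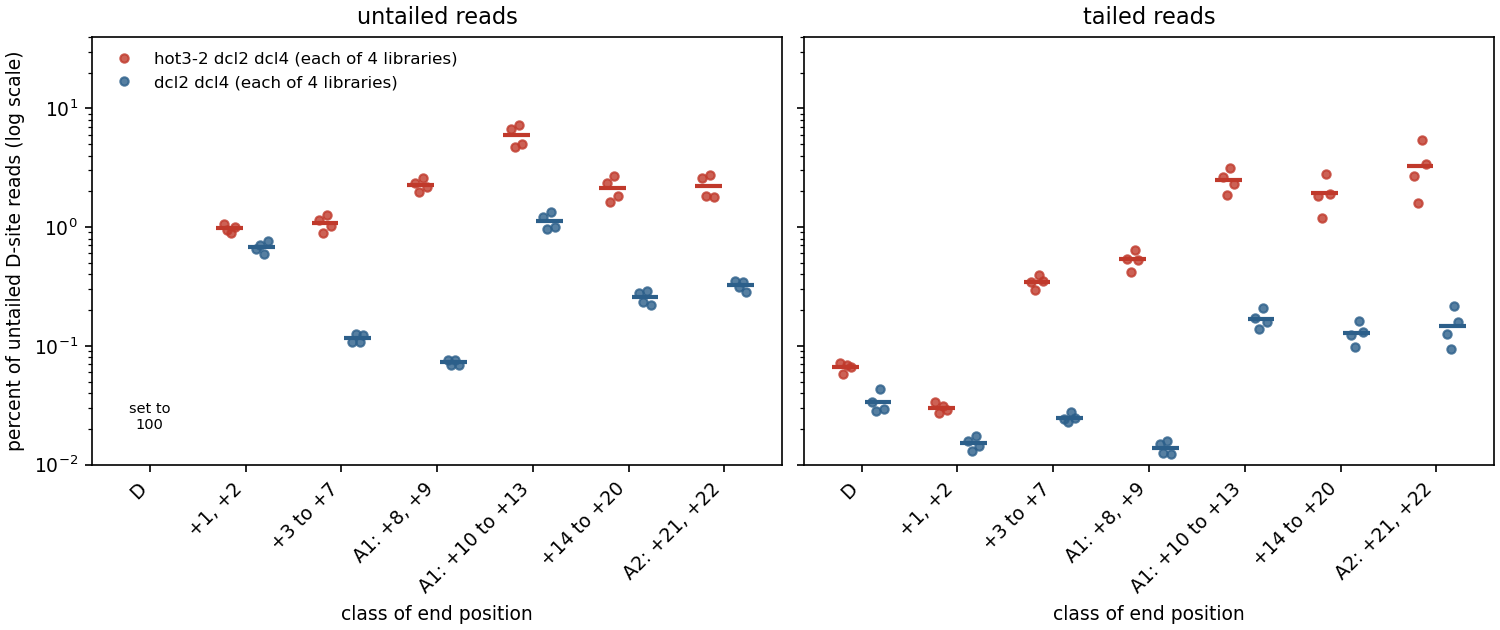
Untailed reads (left panel) and tailed reads (right panel) in each class of end positions, as a percentage of untailed D-site reads (log scale), with 1 point per library and a bar at the mean of 4. Untailed D-site reads are the unit and are set to 100. At A2, tailed reads spread from 1.59 to 5.39% in hot3-2 dcl2 dcl4 and from 0.0931 to 0.215% in dcl2 dcl4.

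The classes carried unequal amounts of tail. At A2, tailed reads outnumbered untailed reads in 3 of 4 hot3-2 dcl2 dcl4 libraries and in no dcl2 dcl4 library. The tailed share there was 51.2, 46.5, 66.2 and 65.4% in hot3-2 dcl2 dcl4, against 26.3, 22.9, 38.4 and 36.0% in dcl2 dcl4. Replicates 3 and 4 had the larger shares in both genotypes, and the groups were separate within replicates 1 and 2 and within replicates 3 and 4. Tailed A2 reads rose by 4.46 on the log2 scale, beside 2.79 for untailed A2 reads. Most of them ended at +22, where tails of 4 nt, as an example, made up 0.312, 0.188, 0.621 and 0.401% of mature 18S rRNA in hot3-2 dcl2 dcl4 and 0.0126, 0.00931, 0.0218 and 0.0189% in dcl2 dcl4 (log2 4.61, edgeR adjusted p = 7.93e-08). All 10 tail lengths at +22 had a log2 fold change between 4.15 and 4.61, so no tail length stood out. With tailed reads included, the ratio of A1 to A2 was 2.14 ± 0.416 in hot3-2 dcl2 dcl4 and 2.94 ± 0.124 in dcl2 dcl4, which did not overlap.

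The A1 ends had a smaller and steadier tailed share. It was 26.9% ± 1.28 in hot3-2 dcl2 dcl4 and 13.2% ± 0.533 in dcl2 dcl4, a rise of 1.03 on the log2 scale. At +10 to +13 it rose by 1.19 on the log2 scale, to 29.6% ± 1.50 in hot3-2 dcl2 dcl4, against 12.96% ± 0.573 in dcl2 dcl4, while at +8 and +9 the share was 18.9% ± 0.967 in hot3-2 dcl2 dcl4 and 16.0% ± 0.983 in dcl2 dcl4. In that small difference the groups did not overlap. Counting only tails of 2 nt or more, the log2 value for +8 and +9 pooled was -0.01 (exact permutation p = 0.914). The positions +8 and +9 were not compared singly in this way, so opposite changes at them could be hidden. At the single position +8 the tailed share was 14.3% in both genotypes (± 0.373 in hot3-2 dcl2 dcl4 and ± 1.01 in dcl2 dcl4, exact permutation p = 0.971), although its untailed reads and its tails of 1 and 2 nt each rose by more than 5 on the log2 scale.

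Between A1 and A2 the tailed share was 47.1% ± 4.54 in hot3-2 dcl2 dcl4 and 33.3% ± 3.72 in dcl2 dcl4, and at +23 and +24 it was 62.5% ± 11.4 in hot3-2 dcl2 dcl4 and 25.3% ± 6.65 in dcl2 dcl4. Neither pair of groups overlapped.

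Position by position, the tailed share differed at 20 of 30 ends (exact permutation, Benjamini-Hochberg p = 0.0429 for each), and 16 of these were higher in hot3-2 dcl2 dcl4. The largest difference in percentage points within A1 was at +11, with 44.6% ± 1.60 in hot3-2 dcl2 dcl4 and 27.1% ± 1.18 in dcl2 dcl4, and at +12 it was 24.9 to 27.2% in hot3-2 dcl2 dcl4 and 12.4 to 13.3% in dcl2 dcl4. At +13, 1 base further, the share was only 1.63% ± 0.269 in hot3-2 dcl2 dcl4 and 0.561% ± 0.133 in dcl2 dcl4. Among the ends from +1 to +22, tails were most frequent at +17 (75.7% ± 2.37 in hot3-2 dcl2 dcl4, 66.7% ± 3.14 in dcl2 dcl4) and at +22 (81.4% ± 3.93 in hot3-2 dcl2 dcl4, 71.8% ± 5.64 in dcl2 dcl4), and at +22 the groups overlapped (exact permutation p = 0.0571). The shares at +22 were 79.0, 77.1, 84.9 and 84.5% in hot3-2 dcl2 dcl4 and 69.9, 64.8, 77.4 and 75.1% in dcl2 dcl4. Replicates 3 and 4 were the higher in both genotypes. The groups were separate within replicates 1 and 2 and within replicates 3 and 4. The 4 positions with a lower tailed share in hot3-2 dcl2 dcl4 were -5, -4, +5 and +7. At +7 the values were 37.7% ± 0.951 in hot3-2 dcl2 dcl4 and 43.4% ± 4.35 in dcl2 dcl4, although tailed reads at +7 were far more abundant in hot3-2 dcl2 dcl4 (0.277% ± 0.0319 against 0.0148% ± 0.00173 of mature 18S rRNA). Of these ends, +5, +7, +11 and +17 were picked out after their values were seen.

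**Figure D4:**
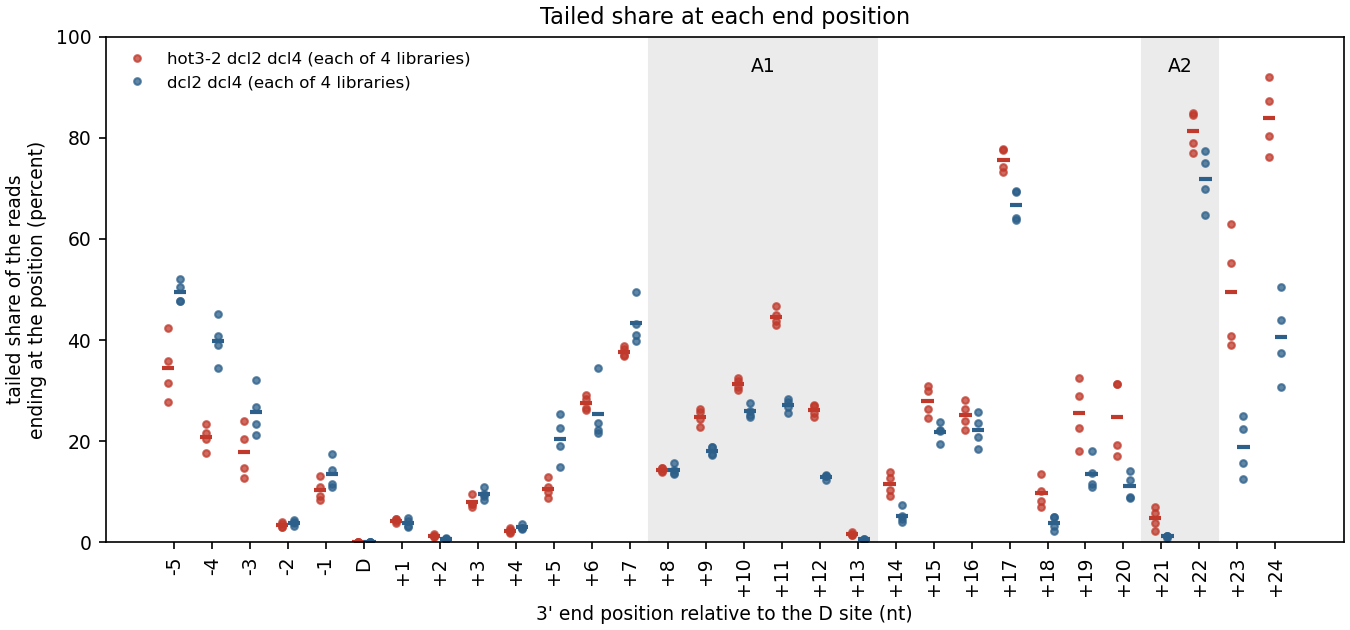
Tailed share of the reads at each 3′ end position in percent, with 1 point per library and a bar at the mean of 4. Peaks stand at +17 and +22 in both genotypes and at +11 in hot3-2 dcl2 dcl4 (44.6% against 27.1%), and the share at +8 is 14.3% in both.

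A few ends held most tails. The end at +22 held 35.7% ± 6.13 of tailed reads of the window in hot3-2 dcl2 dcl4 and 28.4% ± 4.33 in dcl2 dcl4. The end at +17 held 16.3% ± 0.272 in hot3-2 dcl2 dcl4 and 19.0% ± 0.453 in dcl2 dcl4. The ends at +11 and +12 held 14.9 and 11.6% in hot3-2 dcl2 dcl4 and 14.03 and 16.3% in dcl2 dcl4. An A added to an end that is followed by A in ITS1 has the letters of the next template position and cannot be told from it. The median tailed share was 10.6% in hot3-2 dcl2 dcl4 and 9.51% in dcl2 dcl4 over the 9 positions followed by A, and 26.2% in hot3-2 dcl2 dcl4 and 18.1% in dcl2 dcl4 over the other 13. For instance, an end at +13 with 1 to 4 added adenosines has the letters of an untailed end at +14 to +17, and an end at +20 with 1 or 2 added adenosines has those of an untailed A2 end. The sum of tailed and untailed reads from +1 to +22 does not depend on how reads are divided between the kinds. It was 24.3, 17.3, 29.7 and 21.3% in hot3-2 dcl2 dcl4, against 3.16, 2.78, 3.38 and 2.97% in dcl2 dcl4 (7.53-fold).

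At 4 ends, picked after their values were seen, the tail lengths had a sharp break at the same place in both genotypes. They were not the only ends with a shared break. Which nucleotides the tails contained was not examined, since only their lengths are given. For each end, the shortest run of adenosines was computed that would match the ITS1 letters after it more often than not (a score above 0 with 1 for each match and -1 for each mismatch), a comparison chosen after the values were seen. That length was 7 nt at +10, 5 nt at +11, 3 nt at +12 and 5 nt at +17, and no run of up to 10 nt scored above 0 at +9 or +22. The steepest fall between neighbouring tail lengths from 1 to 9 nt lay at those same lengths at all 4 ends in both genotypes. Over the 22 ends from +1 to +22, it lay at the same length in both genotypes at 9 and at different lengths at 13, so the agreement is not general. The rest of those 9 were +3, +7, +14, +16 and +20. At +3, +14, +16 and +20 the computed length was 1 nt, so no step could be set against it. At +7 no run scored above 0, yet both genotypes fell most at 8 nt. That step was 4.06-fold in hot3-2 dcl2 dcl4 and 10.7-fold in dcl2 dcl4, where the longer tails were near the limit of 3 reads. At +12, tails of 2 nt made up 0.506% of mature 18S rRNA and tails of 3 nt 0.0219% in hot3-2 dcl2 dcl4 (a 23.1-fold step), against 0.0340 and 0.00133% in dcl2 dcl4 (25.6-fold). At +17, the step from 4 to 5 nt was 10.8-fold in hot3-2 dcl2 dcl4 and 6.65-fold in dcl2 dcl4. At +11 it was 6.17-fold in hot3-2 dcl2 dcl4 and 6.75-fold in dcl2 dcl4, also from 4 to 5 nt. At +10, from 6 to 7 nt, it was 8.06-fold in hot3-2 dcl2 dcl4 and 9.05-fold in dcl2 dcl4, where the longer tails were near the limit of 3 reads. At +22 no step exceeded 1.29-fold in hot3-2 dcl2 dcl4 or 1.30-fold in dcl2 dcl4. At +19, where the computed length was 3 nt, the steepest fall was at 5 nt in hot3-2 dcl2 dcl4 and at 3 nt in dcl2 dcl4, so the match held in dcl2 dcl4 alone. Whether the aligner moved longer tails at +10, +11, +12 and +17 to ends further downstream was not tested.

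**Figure D5:**
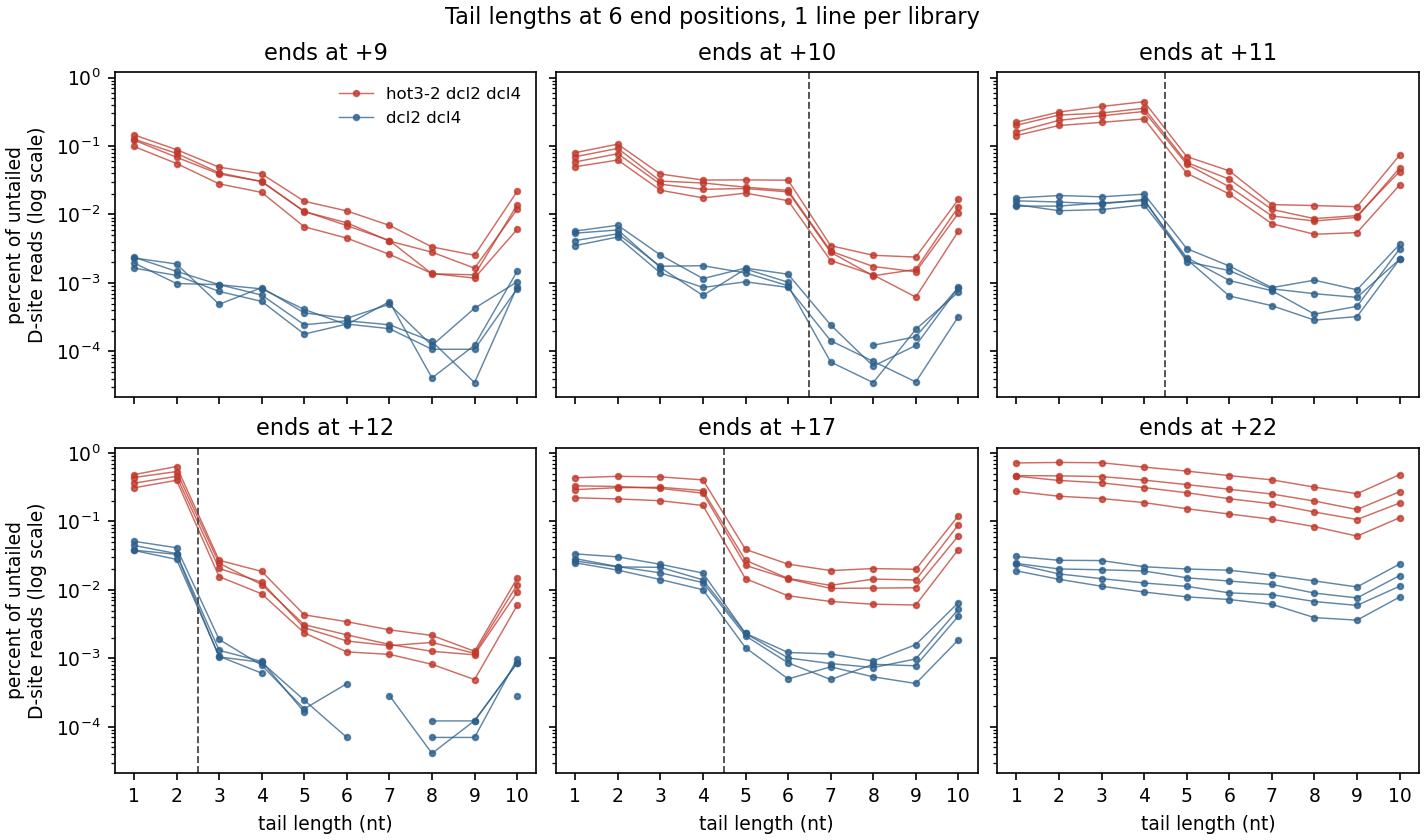
Reads with tails of 1 to 10 nt at 6 end positions, as a percentage of untailed D-site reads (log scale), with 1 line per library and rows at 0 left out. The dashed line stands before the shortest run of adenosines that scores above 0 against the following ITS1 letters (7 nt at +10, 5 nt at +11, 3 nt at +12 and 5 nt at +17), and both genotypes fall there, while the lines at +9 and +22 have no such length.

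At A2 the groups did not differ in mean tail length beyond their spread. It was 4.32, 4.33, 4.71 and 4.61 nt in hot3-2 dcl2 dcl4 and 4.43, 4.23, 4.86 and 4.72 nt in dcl2 dcl4, with the groups overlapping (exact permutation p = 0.629). At A1 it was 2.62 nt ± 0.102 in hot3-2 dcl2 dcl4 and 2.46 nt ± 0.0908 in dcl2 dcl4 (exact permutation p = 0.0857), although the share of A1 tails of 3 nt or more was larger in every hot3-2 dcl2 dcl4 library (37.4% ± 1.92 against 30.6% ± 1.54). By library the A1 means were 2.58, 2.50, 2.73 and 2.67 nt in hot3-2 dcl2 dcl4 and 2.45, 2.33, 2.54 and 2.51 nt in dcl2 dcl4. Each hot3-2 dcl2 dcl4 library was above the same-numbered dcl2 dcl4 library. From +3 to +7 tails were shorter, 2.58 nt ± 0.0891 in hot3-2 dcl2 dcl4 and 4.12 nt ± 0.295 in dcl2 dcl4, with no overlap. Tails of 10 nt at +22 were more frequent than tails of 9 nt, 0.263% against 0.143% in hot3-2 dcl2 dcl4 and 0.0148% against 0.00705% in dcl2 dcl4. Whether the 10 nt class also holds longer tails is not given in the sources used here, so the means may be too low.

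Mature 18S rRNA itself carried very few tails. At the D site tailed reads made up 0.0711, 0.0583, 0.0688 and 0.0656% in hot3-2 dcl2 dcl4, against 0.0339, 0.0283, 0.0435 and 0.0294% in dcl2 dcl4, with no overlap (1.95-fold). Single-nucleotide tails were the most frequent of these in hot3-2 dcl2 dcl4, at 0.0425% ± 0.00625, against 0.0146% ± 0.000534 in dcl2 dcl4 (log2 1.54 ± 0.21 SE, edgeR adjusted p = 9.07e-06). The rarer tails of 2 and 3 nt were also called higher (log2 1.08 and 2.07, adjusted p = 0.00296 and 0.000196), whereas tails of 10 nt were at 0.0164% ± 0.00315 in hot3-2 dcl2 dcl4 and 0.0165% ± 0.00690 in dcl2 dcl4 (adjusted p = 0.994). With tails of 2 nt or more alone, the difference at the D site was 0.29 on the log2 scale (exact permutation p = 0.286).

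Untailed ends at +1, +2 and within 18S rRNA had log2 fold changes from 0.11 to 1.38. The rare ends at -5 changed most, to 0.0239% ± 0.00290 in hot3-2 dcl2 dcl4, against 0.00919% ± 0.000736 in dcl2 dcl4 (log2 1.38, edgeR adjusted p = 5.22e-05). Those at -4 were at 0.0826% ± 0.00882 in hot3-2 dcl2 dcl4, against 0.0381% ± 0.00397 in dcl2 dcl4 (log2 1.12, edgeR adjusted p = 6.22e-05). Ends at -3 and -1 were also called higher (log2 0.61 and 0.53), and neither call held relative to all counted reads (adjusted p = 0.0641 and 0.0639). Untailed ends at -2, the most frequent end after the D site, were at 4.44, 4.34, 4.66 and 4.81% in hot3-2 dcl2 dcl4 and 4.14, 4.08, 4.30 and 4.40% in dcl2 dcl4 (log2 0.11 ± 0.10 SE, edgeR adjusted p = 0.337). At +1 they were at 0.558, 0.519, 0.523 and 0.573% in hot3-2 dcl2 dcl4, against 0.307, 0.317, 0.293 and 0.390% in dcl2 dcl4 (log2 0.73 ± 0.15 SE, adjusted p = 0.000305). At +2 the groups overlapped, with 0.429% ± 0.0594 in hot3-2 dcl2 dcl4 and 0.350% ± 0.0410 in dcl2 dcl4 (adjusted p = 0.0986, and 0.0395 without hot3-2 dcl2 dcl4 replicate 3). An edgeR fit with a replicate block called both -2 and +2 higher (adjusted p = 0.0270 and 0.00522), although same-numbered libraries were not taken as pairs. Whether these ends were called therefore depended on the model, and at +2 also on the libraries used. Shortened ends from -5 to -1 summed to 7.72% ± 0.562 untailed in hot3-2 dcl2 dcl4 and 6.38% ± 0.474 in dcl2 dcl4 with no overlap, but relative to all counted reads the difference was 0.02 on the log2 scale and the libraries overlapped. Tailed shortened ends were at 0.593% ± 0.0433 in hot3-2 dcl2 dcl4 and 0.577% ± 0.0304 in dcl2 dcl4 (exact permutation p = 0.543).

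The only rows called lower in hot3-2 dcl2 dcl4 were 6-nt tails at -3 and -4. The row at -3 held 0.0103, 0.00291, 0.00887 and 0.00342% in hot3-2 dcl2 dcl4 and 0.0101, 0.0145, 0.0109 and 0.0154% in dcl2 dcl4, where replicates 2 and 4 of hot3-2 dcl2 dcl4 were low and replicate 1 overlapped (means 0.00638 and 0.0127%, edgeR adjusted p = 0.0293). The row at -4 held 0.00634, 0.00190, 0.00723 and 0.00201% in hot3-2 dcl2 dcl4 and 0.00659, 0.00651, 0.00853 and 0.0132% in dcl2 dcl4, where the same replicates were low and replicate 3 overlapped (log2 -1.01 ± 0.45 SE, adjusted p = 0.0482). Neither call held without dcl2 dcl4 replicate 4 (adjusted p = 0.0798 at -3 and 0.173 at -4) or without hot3-2 dcl2 dcl4 replicate 4 (0.0909 at -3 and 0.134 at -4). With replicates 1 and 3 alone the differences nearly vanished, at -0.13 (adjusted p = 0.681) for -3 and -0.16 (adjusted p = 0.648) for -4. The call at -3 was also lost without dcl2 dcl4 replicate 2 (0.0585), and that at -4 without dcl2 dcl4 replicate 3 (0.0734) and without hot3-2 dcl2 dcl4 replicate 2 (0.0814), and with either stricter count filter (0.0517 and 0.0541).

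To ask whether the hot3-2 effect differed in plants with DCL2 and DCL4, the nonpolysome libraries of hot3-2 and WT were set beside these. Tailed reads from +1 to +22 were at 8.74% ± 2.65 in hot3-2 and 0.501% ± 0.199 in WT, and the log2 effect without DCL2 and DCL4 differed from the effect in these plants by -0.09 (exact permutation of the background over 4900 arrangements, p = 0.848). Such differences were taken between means of log2 values, not between log2 ratios of the means. The permutation assumes no effect of the background at all, and any such effect would widen the permuted spread. The tailed share at A2 was 65.8% ± 9.64 in hot3-2 and 44.1% ± 9.42 in WT, with an effect larger by 0.32 on the log2 scale without DCL2 and DCL4 (exact permutation p = 0.376). At +8 and +9 untailed reads were at 2.09% ± 0.243 in hot3-2 and 0.0677% ± 0.00822 in WT (difference of effects 0.02, exact permutation p = 0.936). No difference of effects passed an unadjusted exact p of 0.05 in any of the 56 measures. Of the 30 positional tailed shares, that at +9 did (log2 difference 0.186, exact permutation p = 0.0339, Benjamini-Hochberg p = 0.866). Across rows, edgeR's interaction term was called in 0 of 271 rows tested (0%), 14 passed an unadjusted p of 0.05, DESeq2 also called 0, and TMM scaling called 1. The smallest p belonged to 3-nt tails at -2 (log2 difference 2.14 ± 0.58 SE, adjusted p = 0.452), a row at 0.00104% in hot3-2 dcl2 dcl4 and 0.000137% in dcl2 dcl4. The rows with the next smallest p went in both directions. Without DCL2 and DCL4 the effect was smaller for untailed ends at -5 (log2 difference -1.67 ± 0.54 SE, edgeR adjusted p = 0.468) and -4 (-1.185 ± 0.50, adjusted p = 0.690). It was also smaller for tails of 1, 3, 4 and 10 nt at -5, and larger for tails of 4 and 5 nt at -1 and of 8 nt at +8. The standard error of the difference at +22 was 0.37 for untailed reads and 0.48 for single-nucleotide tails, so a missed threshold does not show that the effects were alike.

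The total extract and the polysomes of the same genotypes were set beside these values without a test. Tailed reads from +1 to +22 were at 3.73% ± 1.00 in hot3-2 dcl2 dcl4 and 0.238% ± 0.0354 in dcl2 dcl4 in the total extract (log2 3.97), and at 1.23% ± 0.239 in hot3-2 dcl2 dcl4 and 0.0858% ± 0.00557 in dcl2 dcl4 in polysomes (log2 3.84). Untailed ends at +8 and +9 had a log2 fold change of 4.85 in the total extract and 4.90 in polysomes, beside 4.97 in the nonpolysome fraction. The ratio of A1 to A2 with tailed reads included, which was lower in hot3-2 dcl2 dcl4 in the nonpolysome fraction, was 2.50 ± 0.428 in hot3-2 dcl2 dcl4 and 3.28 ± 0.162 in dcl2 dcl4 in the total extract, with no overlap. In polysomes it was 3.97 ± 0.815 in hot3-2 dcl2 dcl4 and 3.08 ± 0.303 in dcl2 dcl4, and the libraries overlapped.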

How the data were processed

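The authors deposited raw read counts for each combination of 3′ end position and tail length, with no normalization. Per the methods, RNA was circularised with T4 RNA ligase, reverse-transcribed from a primer in 18S rRNA, amplified by PCR and mapped with STAR to a 45S rDNA reference, and per the labels cutadapt 4.2 and STAR 2.7.10b were used. No molecular identifiers are named, so PCR copies were counted as reads. The aligner sets where template ends and tail begins, so tail length and end position are not independent.

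Each count was divided by the untailed D-site count of its library. Rows with at least 10 counts in at least 4 of 8 libraries were tested with edgeR 4.0.16 (glmQLFit, glmQLFTest), with Benjamini-Hochberg adjustment, and DESeq2 1.42.0 was an alternative. The step was tested on simulated data. The 56 measures and 30 positional shares were compared by two-sided exact permutation tests, adjusted within each family. The tests compare libraries. Other alternatives were filters, library sizes, tail definitions, a replicate block and leaving out each library. Same-numbered libraries did not always deviate together over the rows (correlations -0.0464, 0.376, 0.369 and 0.107), so numbers were not taken as pairs. Some levels did run in step, as untailed A1 was highest in replicate 3 and lowest in replicate 2 of both genotypes. The sequence came from TAIR10.1.

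Rows named in the text are untailed rows at +1, +2, A1 and A2, tailed rows at D, +21 and +22, the largest and smallest changes among rows of at least 0.01%, rows called lower, rows with the smallest interaction p and the most abundant rows. Others are said to be picked after their values were seen. The members, classes and lists were chosen with earlier results of these data known.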

Additional observations from a re-analysis of the deposited data

Results flagged for a closer look

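In 252 groups of 4 libraries, 4 had a library far from the others, and chance alone is expected to set apart about 1 in 20. The untailed A1 to A2 ratio of hot3-2 dcl2 dcl4 replicate 4 was 4.05, against 3.55 to 3.63 in the other replicates. Tails of 9 nt at +21 were at 0.00402% of mature 18S rRNA in hot3-2 dcl2 dcl4 replicate 3, against 0.000687 to 0.000963% in the others. Tails of 5 nt at -1 were at 0.00142% in hot3-2 dcl2 dcl4 replicate 3, against 0.000745 to 0.000752% in the others. Tails of 4 nt at -5 were at 0.000665% in dcl2 dcl4 replicate 4, against 0.000366 to 0.000394% in the others. The causes were not tested.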

How the results depend on the processing

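The count of 223 called rows became 127 of 141 tested with at least 100 counts in 4 libraries, 118 of 139 with at least 10 counts in each dcl2 dcl4 library (added after seeing the data), 131 of 150 with replicates 1 and 3 only and 128 of 154 with replicates 2 and 4 only, since fewer rows were tested. Leaving out 1 library at a time gave 158 to 223. The replicate block gave 228 calls, DESeq2 220, all counted reads 216 and no filter 269. TMM gave 153 calls and 1 interaction call. TMM also turned these log2 values negative: untailed +1 (-2.72), +11 (-0.43), +12 (-1.13), +13 (-1.87), +21 (-0.93), -1 (-2.93), -3 (-2.86), -4 (-2.36) and -5 (-2.08), D-site tails of 1 nt (-1.93), 2 nt (-2.38) and 3 nt (-1.31), 1 nt at +21 (-0.037), 3 nt at -2 (-0.61) and 5 nt at -1 (-0.22). With tails of 2 nt or more, the tailed share at +8 and +9 became -0.0089 on the log2 scale. Among single rows and classes, 28 values lost and 7 gained a call, 16 changed sign, 5 moved by more than their spread and 1746 did none of these. The losses include untailed +10 (0.16) and +22 (0.15) under TMM, and untailed -1 and -3 with all counted reads (adjusted p = 0.0639 and 0.0641) and with replicates 2 and 4 only (0.0575 and 0.121). The replicate block gave a call to untailed +2 (log2 0.29, adjusted p = 0.00522) and -2 (0.11, adjusted p = 0.0270). Relative to all counted reads, untailed ends at +1 and +2 together lost their call (log2 0.27), as did, with tails of 2 nt or more, the tailed share from +3 to +7 (0.28). The untailed levels and tailed shares of A1, A2 and the window from +1 to +22, and the window's tailed level, kept their direction under every alternative run on them. These values, the mean tail length at A2 and the differences of effects also kept their side of the threshold. TMM scaling was run on rows only, not on these class values, and it turned the untailed rows at +11, +12, +13 and +21 negative. A permutation test of 4 against 3 libraries cannot go below 0.0571 and the paired sign-flip test not below 0.125, so those were compared by value. The mean tail length at A2 and some differences of effects did not keep their sign. With 1 library left out, the log2 value of the A2 mean tail length ran from -0.056 to 0.010. The difference of effects ran from -0.317 to 0.138 for the window's tailed level and from -0.0802 to 0.152 for its tailed share. Rows near the limit of 3 reads in dcl2 dcl4 have no reliable fold change.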
